A study of Mus musculus with 6 samples.

Results

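Amino acid transporters that cells are known to induce under stress were followed in the sciatic nerve of newborn mice lacking *Adar1* in the neural crest (NC) lineage. The set comprised 9 genes chosen by symbol, namely *Slc3a2*, *Slc7a5*, *Slc7a11*, *Slc7a1*, *Slc7a3*, *Slc6a9*, *Slc1a4*, *Slc1a5* and *Slc38a2*. All 9 were found among the 59485 genes of the deposited table, each in 1 row. ADAR1 converts adenosine to inosine in double-stranded RNA, which keeps self RNA from being sensed as viral.

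RNA-seq was performed on whole sciatic nerves at postnatal day 4 (P4) from 3 control and 3 mutant animals, with 1 library per animal. Mutants were *HtPA-Cre; Adar1 fl/fl; R26R*, in which a human tissue plasminogen activator promoter drives Cre in migrating NC cells and their derivatives, so that Schwann cells (SCs) carry the deletion while endothelial cells, macrophages and axons of motor neurons do not derive from this lineage. R26R is a Cre-dependent YFP tracer. The sample labels give the controls as wild-type, which in the study's methods stands for R26R animals with 1 or both *Adar1* alleles floxed (*fl/+* or *fl/fl*) and no Cre, so that all animals carried R26R and at least 1 floxed allele. Groups are named by their labels below (control-labelled, mutant-labelled), since the targeted gene could not check them. *Adar* gave 1602, 2066 and 1133 normalized reads in the control-labelled libraries and 11768, 9311 and 9773 in the mutant-labelled ones, a rise of 2.72 on the log2 scale (SE 0.21, limma adjusted p = 4.1e-05). The table holds a single value per gene, so reads from the deleted part and from the rest of *Adar* could not be separated.

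Amino acid transporters bring essential and conditionally essential amino acids across the plasma membrane. When amino acids run short, or when other stresses phosphorylate the initiation factor eIF2α, translation of the transcription factor ATF4 increases, and ATF4 is known to raise transcription of amino acid transporters and of enzymes of amino acid synthesis. Several of the proteins work in pairs, since *Slc3a2* encodes the heavy chain 4F2hc (CD98) that carries light chains such as LAT1 (*Slc7a5*) and xCT (*Slc7a11*) to the membrane. In peripheral nerve, SCs need a large supply of amino acids and lipids while they build myelin.

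Values are read counts on constitutive gene regions divided by DESeq size factors, hereafter normalized reads, where 1 read is worth 0.727 to 1.27 units depending on the library. Libraries held 50938349 to 78250094 reads on genes. Fold changes are mutant-labelled minus control-labelled on the scale of log2(value + 1), fitted with limma over the 25802 genes with a mean of at least 10 normalized reads in either group. A gene was called when its unadjusted p was at most 0.05 and its change at least 2-fold, and p-values were adjusted by Benjamini-Hochberg across the whole set of 25802.

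Because ATF4 is known to bind with C/EBP partners to a composite element, promoters were searched for it before turning to the values. RefSeq promoters (GRCm38.p6, 250 bases before to 50 after each start) were at hand for 6 of the 9 genes, with 9 promoters in all. *Slc7a5*, *Slc7a3* and *Slc1a5* were not analysed in this respect. On both strands, the letters TGATGNAA were present in 2 of the 9 promoters, those of *Slc7a11* and *Slc1a4*, against 3.97% of all 32851 promoters of this length. The sequences around these matches are shown, since they are the stretches in which the element was found, in the direction of the gene and with the match in capitals. Both genes lie on the minus strand, the first match begins 66 bases before the annotated start, the second 47 bases before it and the third 4 bases before it, and the last pair of matches read as the reverse complement of the element.
Slc7a11, chr3:50443661-50443690: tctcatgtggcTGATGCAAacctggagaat
Slc7a11, chr3:50443642-50443671: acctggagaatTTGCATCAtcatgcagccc
Slc1a4, chr11:20332699-20332728: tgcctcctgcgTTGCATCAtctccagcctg
The *Slc7a11* windows overlap and face each other, so its promoter holds the element on each strand within a short stretch. A match gives letters in a window and does not show binding.

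For the antioxidant response element, to which NRF2 binds, the letters TGACNNNGC were present in 4 of the 9 promoters, those of *Slc7a1* and *Slc38a2* and 2 of *Slc6a9*, against 12.4% of all promoters. The interferon-stimulated response element, searched as GAAANNGAA, was in 0 of the 9 promoters of these genes and in 8.56% of all promoters.

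Of the 9 transporters, 8 were called higher and 0 lower in the mutant-labelled nerves. Over all genes tested, 13.9% were called higher, 10.4% lower and 24.2% either way. The median log2 fold change of the 9 was 2.29, against 0.03 over all tested genes. All 9 passed the filter on low values, *Slc7a11* through the mutant-labelled group alone, and without it the median of the other 8 was 2.02. The values of the groups did not overlap for any of the 9, with 8 higher and *Slc38a2* lower, while 49.2% of all tested genes did not overlap, 25.9% being higher and 23.3% lower. All 9 had an adjusted p of at most 0.05 (limma), as had 35% of all tested genes. The transporters thus moved upward with a single exception, in a tissue in which a large part of the transcriptome also changed.

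**Figure D1:**
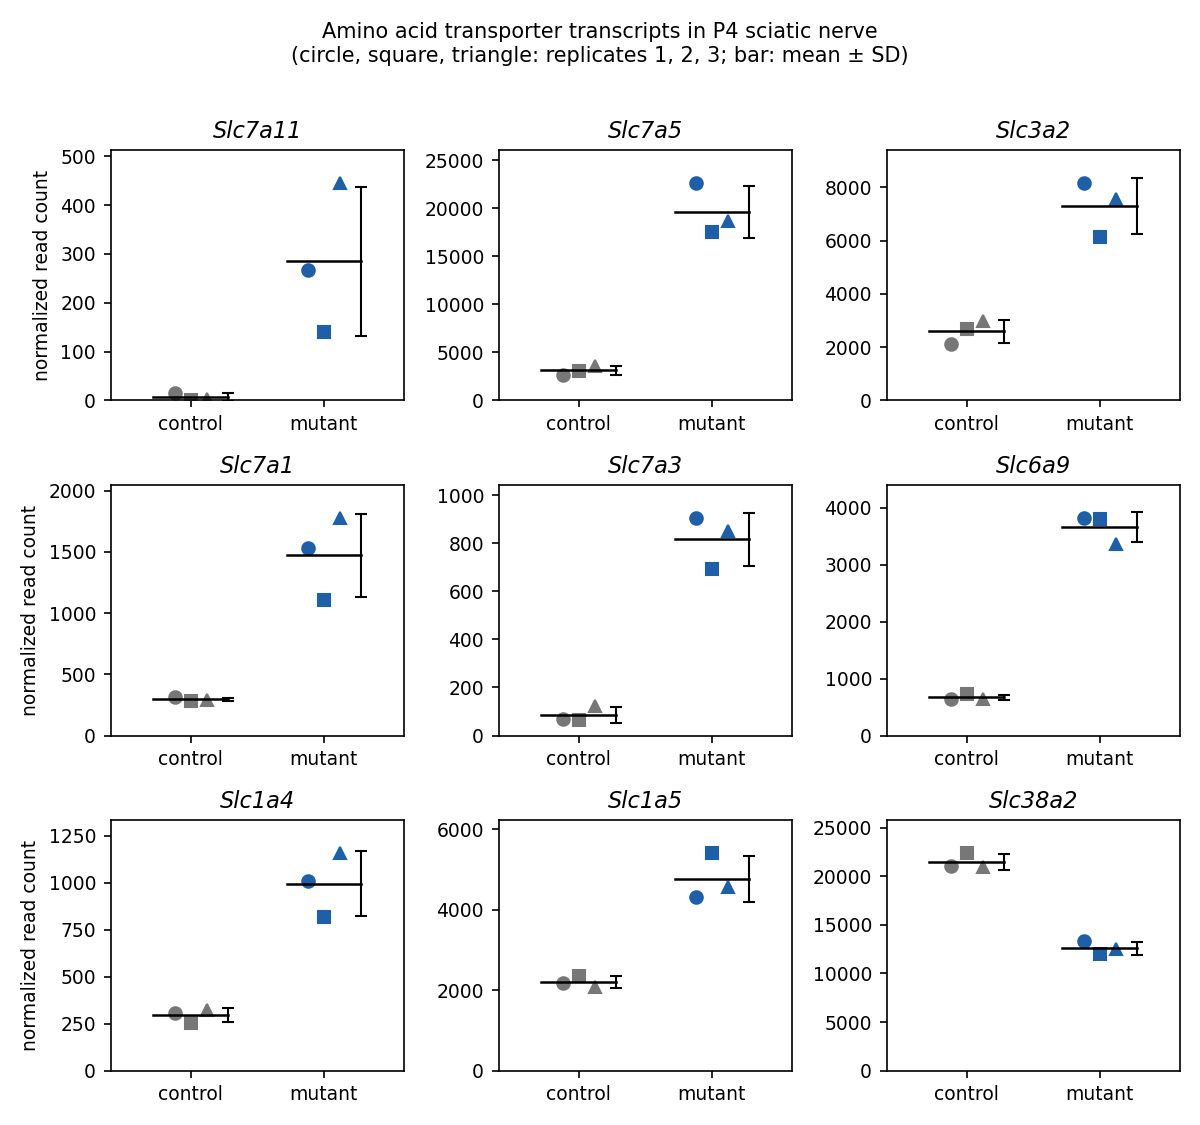
Normalized read counts (linear axes from 0) of the 9 transporters in each of the 3 control-labelled (grey) and 3 mutant-labelled (blue) libraries, with the mean and SD of each group. The 3 blue points lie above the 3 grey points in 8 panels, and below them in the panel of *Slc38a2*.

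*Slc3a2*, the heavy chain, lies on chromosome 19 (mm10, 8706882 to 8723370, minus strand). It was at 2126, 2677 and 2983 normalized reads in control-labelled libraries and at 8178, 6150 and 7564 in mutant-labelled ones. Every mutant-labelled nerve exceeded every control-labelled one. The log2 fold change was 1.50 (SE 0.15, 95% confidence interval 1.14 to 1.85, limma adjusted p = 0.000191). An unnamed gene on the opposite strand within it (19:8707569 to 8712845) was at 248, 379 and 395 normalized reads in controls and 769, 685 and 657 in mutants. The cDNA was oriented, but whether strand was used in counting is not given in the sources used here, so reads of such a pair may not be separate.

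*Slc7a5*, the LAT1 light chain that imports leucine and other large neutral amino acids, lies on chromosome 8 (121881146 to 121907688, minus strand). Its values were 2688, 3099 and 3537 normalized reads in control-labelled nerves and 22643, 17540 and 18668 in mutant-labelled nerves. The lowest mutant-labelled value was 4.96 times the highest control-labelled one. It rose by 2.66 on the log2 scale (SE 0.13, 95% confidence interval 2.35 to 2.96, limma adjusted p = 6.59e-06), from a mean of 3108 ± 424 to 19617 ± 2681 (SD, n = 3 each).

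*Slc7a11*, the xCT light chain that imports cystine in exchange for glutamate and so feeds glutathione synthesis, spans 551090 bases of chromosome 3 (49892525 to 50443614, minus strand). It was almost undetected in control-labelled nerves, with 15.6, 0 and 2.53 normalized reads, which correspond to 14, 0 and 2 reads. Mutant-labelled nerves had 267, 141 and 446 normalized reads, from 367, 146 and 451 reads. All mutant-labelled values were at least 9.06 times the highest control-labelled one. The log2 fold change of 6.05 (SE 0.97, 95% confidence interval 3.82 to 8.28, limma adjusted p = 0.0019) was the largest of the 9. Its size rests on few control reads and ran from 4.18 with a pseudocount of 10 to 7.32 with a pseudocount of 0.1. The ratio of the group means, which uses no pseudocount, was 47.2.

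Light chains were next set against their heavy chain within each library. *Slc7a5* stood at 1.26, 1.16 and 1.19 times *Slc3a2* in control-labelled libraries and at 2.77, 2.85 and 2.47 times in mutant-labelled ones. The log2 ratio thus went from 0.27 ± 0.07 to 1.43 ± 0.11 (SD), a difference of 1.16 with no overlap between groups. For *Slc7a11* over *Slc3a2* the difference was 4.56, and for *Slc7a11* over *Slc7a5* it was 3.39, again without overlap. Each of these 3 differences had a two-sided exact permutation p of 0.1, which is the smallest that 3 against 3 libraries can give, and 0.125 after adjustment over the 5 ratios compared, so none could reach 0.05. The *Slc7a11* differences changed with the pseudocount, over 2.69 to 5.82 for the ratio to *Slc3a2* and 1.53 to 4.66 for the ratio to *Slc7a5*, where the groups overlapped with a pseudocount of 10 (two-sided exact permutation p = 0.2). They also rested on single controls, being 3.55 and 2.41 without control 2, which held no *Slc7a11* reads, and 5.74 and 4.54 without control 1, which held the most.

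Other light chains that pair with 4F2hc did not all follow. Among the 6 measured, 4 were called higher, namely *Slc7a5* and *Slc7a11* together with *Slc7a7* (y+LAT1), at 742 ± 115 against 1994 ± 168 normalized reads, and *Slc7a10* (Asc-1), at 116 ± 26.4 against 294 ± 37.7. *Slc7a6* was at 762 ± 136 and 749 ± 53.3, and *Slc7a8* (LAT2) at 1284 ± 203 and 1081 ± 166, and neither was called, with log2 fold changes of -0.01 (95% confidence interval -0.38 to 0.35) and -0.25 (-0.62 to 0.12).

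Cationic amino acid transporters carry arginine, lysine and ornithine. *Slc7a1* (CAT1; chromosome 5, 148327412 to 148399904, minus strand) was at 312, 283 and 290 normalized reads in control-labelled nerves and at 1531, 1108 and 1777 in mutant-labelled nerves. The controls were tightly grouped while the mutants varied more, with coefficients of variation of 5.19% and 23.0%. Its log2 fold change was 2.29 (SE 0.19, limma adjusted p = 6.32e-05). *Slc7a3* (CAT3; chromosome X, 101079210 to 101085406, minus strand) went from 68.9, 63.3 and 122 normalized reads to 906, 693 and 852, a log2 fold change of 3.31 (SE 0.28, limma adjusted p = 7.29e-05). Here control 3 stood above the other 2 controls, and without it the log2 fold change was 3.60.

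The ratio of *Slc7a3* to *Slc7a1* was 0.223, 0.227 and 0.421 in control-labelled libraries and 0.592, 0.626 and 0.479 in mutant-labelled ones. The log2 ratio differed by 1.02, without overlap (two-sided exact permutation p = 0.1, adjusted 0.125). *Slc7a2*, the third arginine carrier of this subfamily, went the other way, from 470 ± 105 to 99.8 ± 5.30 normalized reads (log2 fold change -2.20, limma adjusted p = 0.000214), so the 3 related carriers split into 2 called higher and 1 called lower.

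*Slc6a9* (GLYT1; chromosome 4, 117834504 to 117875196, plus strand) takes up glycine with sodium and chloride. It was at 647, 721 and 641 normalized reads in control-labelled nerves and 3819, 3792 and 3353 in mutant-labelled nerves. Both groups were narrow, with coefficients of variation of 6.62% and 7.16%. The log2 fold change of 2.45 (SE 0.11, 95% confidence interval 2.19 to 2.70) had the lowest adjusted p of the 9 (limma, 4.38e-06). *Slc6a9* is also known from erythroid cells, whose 7 markers moved the opposite way, with summed values of 55078 to 77131 in control-labelled and 5151 to 15735 in mutant-labelled libraries. A gene overlapping its end on the opposite strand (*Ccdc24 // B4galt2*) stayed between 1748 and 2546 normalized reads in all 6 libraries.

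Both neutral amino acid transporters of the SLC1 family in the set rose, and *Slc1a5* had the smallest of the 8 called rises. *Slc1a4* (ASCT1, a carrier of alanine, serine and cysteine; chromosome 11, 20302180 to 20332715, minus strand) went from 309, 255 and 324 normalized reads to 1012, 818 and 1159. Its log2 fold change was 1.74 (SE 0.18, limma adjusted p = 0.000214). *Slc1a5* (ASCT2, a glutamine carrier; chromosome 7, 16781346 to 16798274, plus strand) went from 2190, 2353 and 2067 to 4316, 5409 and 4556. It rose by 1.11 on the log2 scale (SE 0.12, 95% confidence interval 0.84 to 1.37, limma adjusted p = 0.000199), close to the 2-fold limit, and by 1.01 without mutant 2, the highest of its group. The ratio of *Slc1a4* to *Slc1a5* overlapped between groups, at 0.109 to 0.157 and 0.151 to 0.255 (two-sided exact permutation p = 0.2, adjusted 0.2).

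*Slc38a2* (SNAT2; chromosome 15, 96687390 to 96699731, minus strand), which imports glutamine and alanine by system A and is known to respond to amino acid shortage, was the exception. It had 21033, 22381 and 20946 normalized reads in control-labelled nerves and 13323, 11948 and 12477 in mutant-labelled nerves. The groups were far apart relative to their spread, the highest mutant-labelled value lying below the lowest control-labelled one. The log2 fold change was -0.77 (SE 0.08, 95% confidence interval -0.96 to -0.58, limma adjusted p = 0.00025), or 1.71-fold lower, which passed on p but not on size. Its 2 system A relatives were higher without reaching 2-fold, *Slc38a1* at 266 ± 67.7 against 513 ± 116 normalized reads and *Slc38a4* at 1205 ± 231 against 1985 ± 319. An unnamed gene on the opposite strand over the whole of *Slc38a2* was at 478, 578 and 512 against 324, 189 and 356.

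**Figure D2:**
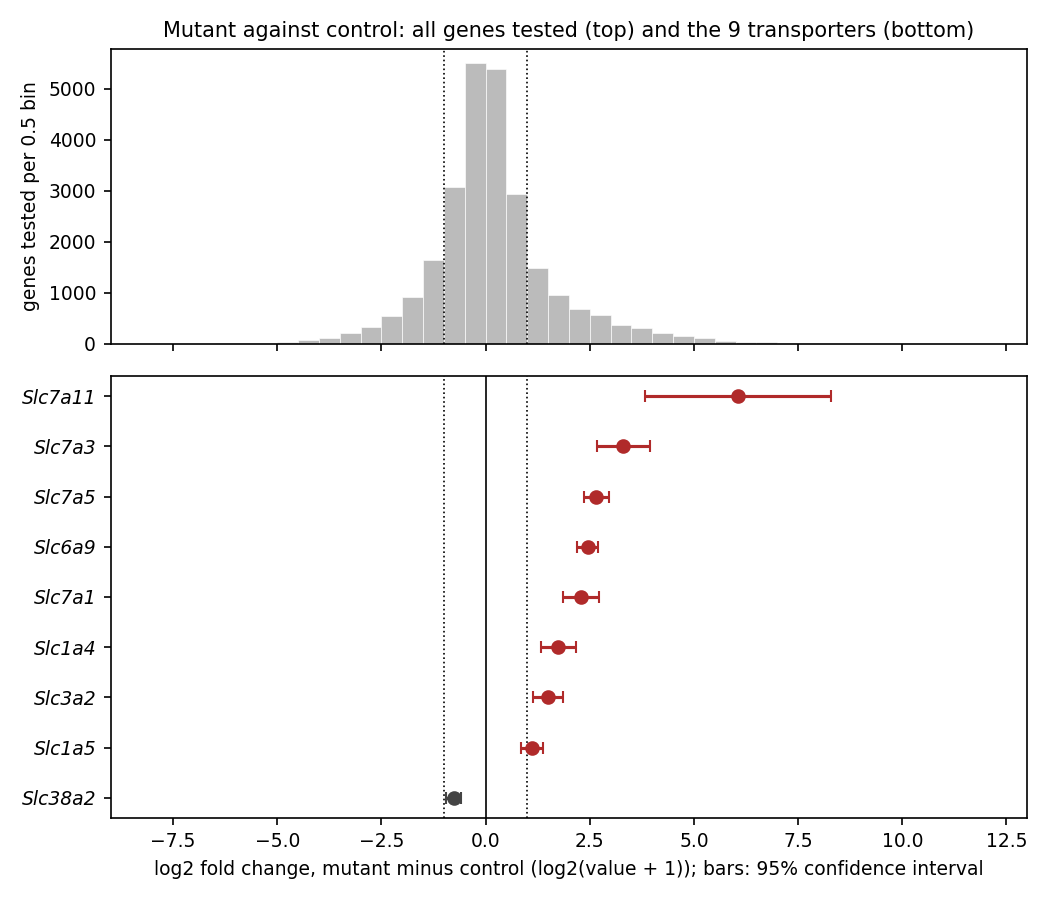
Number of tested genes per bin of log2 fold change (top) and log2 fold change of each transporter with its 95% confidence interval (bottom), mutant-labelled minus control-labelled, with dotted lines at 2-fold. *Slc7a11* lies farthest right at 6.05 with the widest interval, the other 7 called genes (red) lie between 1.11 and 3.31, and *Slc38a2* lies at -0.77.

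Mutant 2 was the lowest of the mutant-labelled libraries for 7 of the 9 genes, the exceptions being *Slc6a9*, lowest in mutant 3, and *Slc1a5*, lowest in mutant 1. Mutant 1 was the highest for 5 of the 9. Control-labelled libraries shared no such place, each being the lowest for 2 to 4 of the 9 genes.

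To compare the genes with each other, normalized reads were divided by the merged exon length in GENCODE vM21. The reads were counted on constitutive regions only, whose length is not given in the sources used here, so these levels per kb are approximate. The 9 genes summed to 4483, 4937 and 4929 normalized reads per kb in control-labelled nerves and to 12358, 10356 and 11040 in mutant-labelled nerves. *Slc38a2* made up 50.8 ± 2.54% of this sum in control-labelled libraries and 12.7 ± 0.438% in mutant-labelled ones (SD, n = 3 each). *Slc7a5* made up 17.5 ± 1.66% and 46.9 ± 2.18%, so that *Slc38a2* was the most abundant transcript of the set in every control-labelled nerve and *Slc7a5* in every mutant-labelled nerve.

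In control-labelled nerves the levels per kb ran, from high to low, *Slc38a2*, *Slc7a5*, *Slc3a2*, *Slc1a5*, *Slc6a9*, *Slc1a4*, *Slc7a1*, *Slc7a3* and *Slc7a11*. Neighbours in this order overlapped for *Slc7a5* (725 to 954) and *Slc3a2* (603 to 845), and for *Slc7a1* (24.5 to 27.1) and *Slc7a3* (16.7 to 32.2). In mutant-labelled nerves the order began with *Slc7a5*, *Slc3a2* and *Slc38a2*, and *Slc7a3* came before *Slc7a1*. Only *Slc1a4* (208 to 295) and *Slc7a3* (183.1 to 239.5) overlapped there among neighbours. *Slc7a11* stayed the least abundant, at 0 to 1.12 and 10.1 to 32.0 normalized reads per kb.

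**Figure D3:**
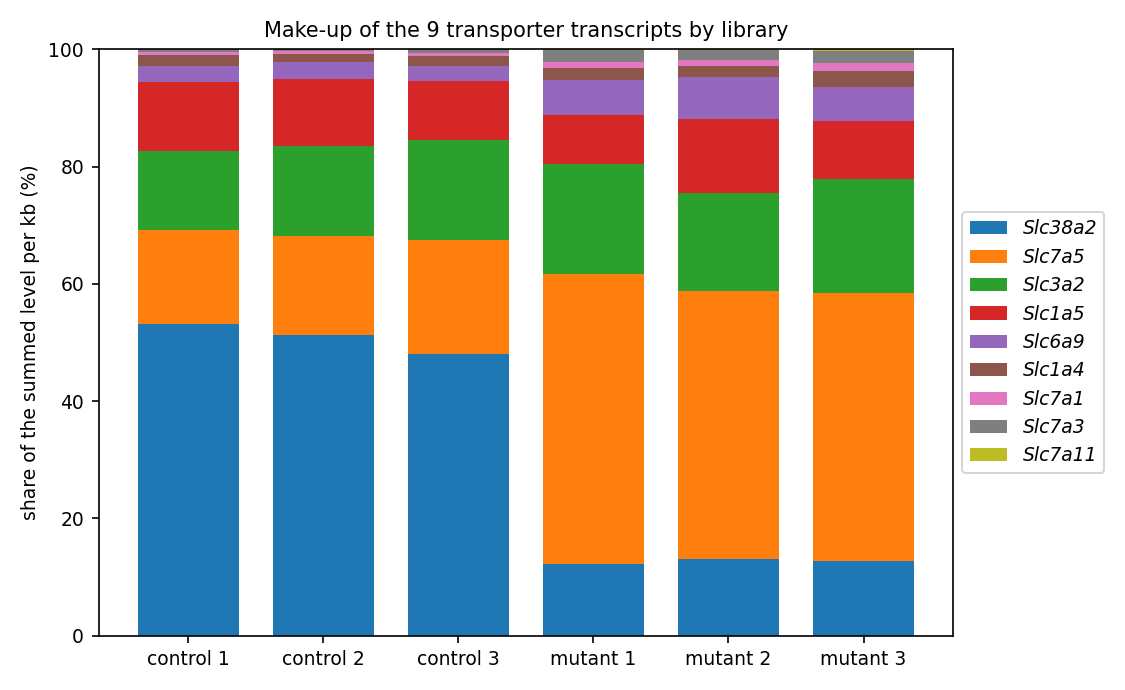
Share of each transporter in the summed level per kb of the 9 genes, as stacked bars for each library. *Slc38a2* (blue) takes 48.1% to 53.1% in the 3 control-labelled libraries and 12.2% to 13.1% in the 3 mutant-labelled ones, while *Slc7a5* (orange) goes from 16.2% to 19.4% up to 45.6% to 49.4%.

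Whole nerves were sequenced, so these values alone cannot tell fewer cells of a type from less RNA per cell. For SCs, the study counted similar numbers per area in mutant and control nerves at P4 by electron microscopy. The sum of 9 SC and myelin markers was 3669288 to 4492991 normalized reads in control-labelled libraries and 111952 to 561152 in mutant-labelled ones. Of the 9, 7 were called lower, while *Sox10* and *Egr2* were not (log2 fold changes of -0.71 and -0.72). Mutant 1 had the highest of these mutant-labelled sums and mutant 2 the lowest. Skeletal muscle markers were at 6951 to 34638 against 44674 to 329040, with 7 of 8 called higher and mutant 3 the highest. T cell markers were near the floor, summing to 87.4 to 189 and 274 to 414. Of the 5 tested, 3 were called higher (*Cd8a*, *Cd2* and *Cd4*), the first of these with 0 reads in every control-labelled library. *Cd8a* and *Cd2* passed the filter through the mutant-labelled group alone. *Cd3e* and *Cd3g* were not called, and *Cd3d* was below the filter. By antibody staining of P4 nerves, the study found no or limited recruitment of immune cells. Neuron markers summed to 2746 to 2863 and 6110 to 6298, with 3 of 6 called higher. Endothelial markers were at 16430 to 24932 and 23575 to 31863, with 1 of 9 called higher. Macrophage markers summed to 15956 to 20360 and 11792 to 14548, but went both ways, with 5 of 10 called lower, *Mrc1* the most (log2 fold change -2.27), and *Aif1* called higher (1.04). Fibroblast markers summed to 1927146 to 2171768 and 780695 to 1181321, with 2 of 6 called lower (*Col1a1* and *Col1a2*). Adipocyte markers set mutant 2 apart, at 6463 against 23.3 and 13.9 in the other mutant-labelled libraries and 7.56 to 1596 in control-labelled ones. The part of these shifts in the transporter values was not tested.

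Other amino acid transporters, 42 in number, were considered next, and 34 passed the filter. Of these, 4 were called higher and 8 lower, with a median log2 fold change of -0.06. *Slc1a7*, *Slc6a14*, *Slc6a18* and *Slc7a14* passed the filter through the mutant-labelled group alone, and *Slc6a19* and *Slc7a13* through the control-labelled group alone. Of these, *Slc6a18* and *Slc7a14* were not called. Among the 28 with a mean of at least 10 in both groups, 2 were called higher and 6 lower. Beside *Slc7a7* and *Slc7a10*, *Slc1a7* was higher, at 6.66, 9.45 and 0 against 43.6, 70.4 and 18.8 normalized reads, as was *Slc6a14*, which had no reads in control-labelled libraries and a mean of 16.9 in mutant-labelled ones, at least 5.09-fold higher when the floor is set at 3 reads per library. The most marked fall was in *Slc36a2* (PAT2, a proton-coupled carrier of glycine, alanine and proline), at 9069, 9113 and 10385 normalized reads in control-labelled nerves and 1244, 454 and 411 in mutant-labelled ones (log2 fold change -3.95, limma adjusted p = 0.00011). *Slc38a5* (SNAT5, 162 ± 23.8 to 15.6 ± 5.39) and *Slc6a19* (55.9 ± 28.7 to 9.11 ± 3.06) also fell, and *Slc7a13*, called lower at a log2 fold change of -2.82, overlapped between groups and had an adjusted p of 0.109 by limma. *Slc36a2* and *Slc36a1* were both called lower, while *Slc36a4* was at 407 ± 65.0 and 393 ± 50.3.

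Genes linked to the stress response that controls such transporters were counted in the same fit. Of the 4 eIF2α kinases, *Eif2ak2* (PKR, which senses double-stranded RNA) was called higher, from 238, 253 and 138 to 1674, 1349 and 1523 normalized reads (log2 fold change 2.89, limma adjusted p = 6.53e-05). The others, *Eif2ak1*, *Eif2ak3* (PERK) and *Eif2ak4* (GCN2), had log2 fold changes of -0.33, -0.55 and -0.22. Of 16 ATF4 pathway genes, 12 were called higher and 0 lower, with a median log2 fold change of 2.83 (2.65 without *Fgf21*, which passed the filter through the mutant-labelled group alone). *Atf4* itself, which is controlled mostly at translation, was at 18550 ± 477 and 33487 ± 1821 normalized reads (log2 fold change 0.85, limma adjusted p = 0.000137), short of 2-fold.

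Among the genes of that list that rose most were *Chac1*, which degrades glutathione (from 21.0 ± 8.90 to 3295 ± 537), the pseudokinase *Trib3* (79.8 ± 41.8 to 10441 ± 2083), and the secreted factors *Gdf15* (23.6 ± 11.4 to 2275 ± 528) and *Fgf21*. *Fgf21* had no reads in control-labelled libraries and 49.5, 110 and 60.3 normalized reads in mutant-labelled ones, at least 22.1-fold higher with the floor at 3 reads per library. *Ddit4*, *Vldlr* and *Ppp1r15a* were not called, with log2 fold changes of 0.65, 0.72 and 0.12. The list medians could not move with genes at 0 in control-labelled libraries set to their bound, since each bound lay above its list's median.

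NRF2, encoded by *Nfe2l2*, is another known regulator of *Slc7a11*. Of 12 genes of its pathway, 1 was called higher (*Osgin1*, 22.8 ± 22.9 to 144 ± 25.7) and 1 lower (*Slc48a1*, 6239 ± 134 to 2993 ± 265), with a median log2 fold change of 0.21. *Nfe2l2* was at 9420 ± 1622 and 11513 ± 461 normalized reads (log2 fold change 0.30, limma adjusted p = 0.092). Of 11 genes of cysteine and glutathione metabolism, the steps that use imported cystine, 2 were called higher (*Chac1* and *Cth*, which makes cysteine, 46.4 ± 22.4 to 465 ± 86.8) and 1 lower (*Ggt1*, 149 ± 13.5 to 44.5 ± 17.2).

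**Figure D4:**
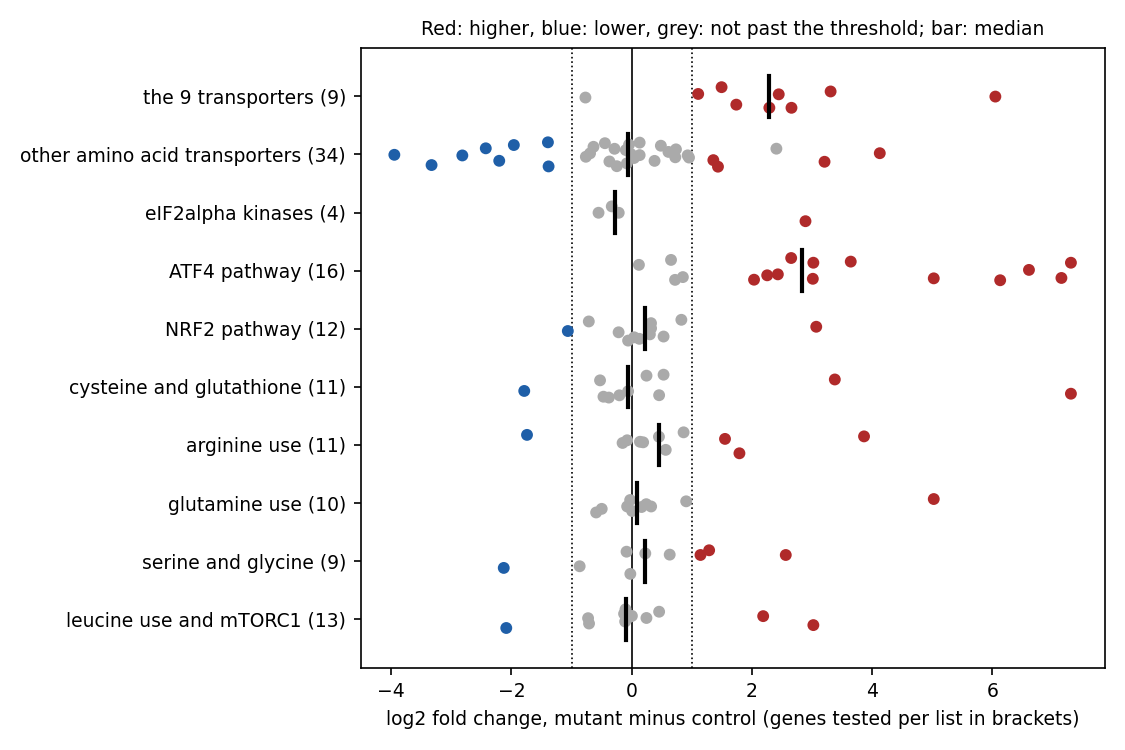
Log2 fold change, mutant-labelled minus control-labelled, of every tested gene in each list, with the list's median as a black bar, called genes in red (higher) or blue (lower), and dotted lines at 2-fold. The 9 transporters and the 16 ATF4 pathway genes have medians of 2.29 and 2.83, and the medians of the other 8 lists lie between -0.27 and 0.45.

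Calls among genes that use the transported amino acids were set beside the 24.2% of all tested genes. They made up 36.4% of the arginine list, 10% of glutamine, 44.4% of serine and glycine, and 23.1% of leucine and mTORC1. Among genes of arginine use, those called higher included the row shared by *Ass1* and *Gm5424* (136 ± 35.3 to 392 ± 38.2), whose reads could not be assigned to either gene. The creatine enzyme *Gatm* was called lower (33263 ± 2130 to 9992 ± 1388). Of 10 genes of glutamine use, 1 was called, the asparagine synthetase *Asns*, from 469, 623 and 579 to 18215, 15660 and 20548 normalized reads (log2 fold change 5.03, limma adjusted p = 8.72e-07). *Asns* is also in the ATF4 list.

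Of 9 genes of serine and glycine metabolism, 3 were called higher, *Mthfd2* (1302 ± 213 to 7645 ± 500), *Shmt2* (3681 ± 333 to 9008 ± 1118) and *Shmt1* (227 ± 20.3 to 505 ± 70.7). The glycine decarboxylase *Gldc* was called lower (437 ± 97.7 to 111 ± 72.4). Of 13 tested genes of leucine use and mTORC1 control, 2 were called higher, the leucine sensor *Sesn2* (233 ± 83.9 to 1834 ± 203) and the transaminase *Bcat1* (480 ± 98.8 to 2159 ± 117), and *Sesn1* was called lower (4359 ± 403 to 1028 ± 134). *Mtor* was at 3843 ± 173 and 3634 ± 579, and *Castor1* was not found under that symbol. Over all 115 tested genes of the lists, each counted once, 26 were called higher and 13 lower, 33.9% in all, against 24.2% of all tested genes. Of the 26, 12 came from the ATF4 list, where 75% of genes were called. In the other lists the share called ran from 10% for glutamine use to 44.4% for serine and glycine, with 35.3% for the other amino acid transporters.

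For each transporter, the genes whose log2 values ran most alike over the 6 libraries were sought among 13042 named genes with a mean of at least 100. These correlations describe the 2 groups as much as the libraries within them. For *Slc7a5* they were led by the alanyl-tRNA synthetase *Aars* (Pearson r = 0.9996) and included the tyrosyl-tRNA synthetase *Yars* (r = 0.9985), with *Zcchc2*, *Dusp5* and *Dimt1* between them. For *Slc3a2* they were led by *Lag3* (r = 0.9998) and *Lonp1* (r = 0.9991), for *Slc7a11* by *Mettl16* (r = 0.9982) and *Hdc* (r = 0.9975), and for *Slc7a1* by *Wnt10a* (r = 0.9994). *Pttg1* led for *Slc7a3* (r = 0.9998), *Aen* for *Slc1a4* (r = 0.9989) and *Tes* for *Slc1a5* (r = 0.9993). For *Slc6a9* the 5 nearest were *Maff*, *Rbbp8*, *Zfp36*, *Cfb* and *Apobec3* (r from 0.9995 to 0.9988). For *Slc38a2*, the only one of the set to go down, they were led by *Morn1* (r = 0.9993) and *Dnaaf3* (r = 0.9991). The log2 fold changes of its 5 nearest genes ran from -0.82 to -2.64, a direction that follows from choosing them by likeness.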

How the data were processed

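Per the labels and the study's methods, polyA RNA of P4 sciatic nerves was sequenced as paired ends, mapped with STAR 2.4.0 to mm10 and counted on constitutive regions of FAST DB genes. The authors deposited 1 table of signal per gene and library, namely read counts divided by DESeq size factors. Dividing by the value of 1 read gave whole reads for 100% of values within 0.02 reads in each library, although in mutant 3 that value (0.989) lies so near 1 that the step is harder to tell from unscaled values. These reads entered only the edgeR (4.0.16) and DESeq2 (1.42.0) alternatives.

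log2(value + 1) was fitted with limma 3.58.1 (lmFit, eBayes with trend, R 4.3.3), 3 against 3 libraries without covariates. The pipelines were tested on simulated data. Ratios were compared by exact permutation in Python 3.11.15 (scipy 1.17.1). The transporters, the gene lists and the tests were chosen with earlier results of these data known. Named genes are the 9 transporters, *Adar*, up to 4 called genes per direction of each list with the largest change, *Atf4* and *Nfe2l2*, and the 5 genes most like each transporter; genes named beyond these were chosen after their values were seen. P-values from limma rest on the spread between 3 animals per group, moderated toward a trend over all tested genes. Without the trend, the limma adjusted p of *Slc7a5* was 0.00118 and that of *Slc38a2* 0.01. The largest of the 9 was then 0.016, for *Slc7a11*. Columns without per-sample values were not used. The values of some genes of these lists are not reported here.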

Additional observations from a re-analysis of the deposited data

How the results depend on the processing

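Fold changes and counts of calls were recomputed under 12 other settings (pseudocounts, filters, scalings, moderation, adjusted p, edgeR, DESeq2 and a block) and after leaving out any 1 of the 6 libraries, and the 5 ratios under 2 other pseudocounts and without each library. Levels per kb, list medians and correlations were not recomputed. In all 18, 8 of the 9 transporters were called higher and *Slc38a2* stayed lower and short of 2-fold. Calls over the lists ran from 35 to 42 (39 as reported) and over all genes from 4706 with a filter at a mean of 50 to 6892 without a filter (6251 as reported). With a library left out they were 38 to 42 and 5743 to 6334. edgeR called 5805 genes and DESeq2 6026. With equal library totals, the median over all genes shifted by 0.17, to 0.20. Relative to that median, *Slc1a5* was at 1.07 and *Slc38a2* at -0.81, where they had been at 1.07 and -0.80 before. The log2 fold change of *Slc7a11* was the least settled, at 5.07 to 7.10 with a library left out, since its control-labelled libraries held at most 14 reads.

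Same-numbered libraries did not deviate together (correlations of -0.062, -0.055 and 0.009 over 25802 genes). With 3 libraries per group this cannot exclude a shared litter or preparation, and same-numbered animals carry consecutive identifiers in the labels. With the replicate number as a block, 8 transporters, 38 genes of the lists and 6149 of all genes were called.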
